A study of Mus musculus with 15 samples.

Results

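The 42 genes described here encode receptors for neuromodulators and neuropeptides: serotonin, acetylcholine, noradrenaline, dopamine, opioid peptides, neuropeptide Y, somatostatin, cholecystokinin, tachykinins, oxytocin, vasoactive intestinal peptide and adenosine. They were listed by name, with earlier results of these data known, and were found among the 43629 genes of the table. The symbol itself matched for 41 of them, and Drd1, which the table lists under its older symbol Drd1a, was found by its Ensembl identifier. Of the 42, 33 were above 0 in some cell, and the other 9 were listed at 0 throughout.

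Most of these receptors are G protein-coupled. Those that couple to Gi lower cyclic AMP, open potassium channels and reduce transmitter release, those that couple to Gs raise cyclic AMP, and those that couple to Gq release calcium from internal stores. The nicotinic receptors and the serotonin-gated channel, in contrast, are ligand-gated cation channels built of several subunits that excite the cell within milliseconds. In the hippocampus, interneurons are major targets of the cholinergic and serotonergic fibres that arrive from the septum and the raphe, and interneuron classes are known to differ in the receptors they carry.

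Transcripts were measured in 15 single interneurons of the CA1 area, with 5 VGT3+, 5 Pv+ and 5 Sst+ cells and 1 library per cell. The cells came from organotypic hippocampal slice cultures of C57BL6 mice of either sex, cultured from postnatal day 6 to 7. All mice carried a TdTomato reporter, switched on by Cre from Slc17a8 (VGT3-Cre) for VGT3+ cells, from Pvalb (Pv-Cre, 1 of 2 lines) for Pv+ cells and from Sst (Sst-Cre) for Sst+ cells. The question was how the receptor genes differed between the 3 types.

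A reporter of this kind stays on in any cell that ever expressed Cre, and the cytosol was drawn through a patch pipette, so each library holds what the pipette took up. Because a separate mouse line gave each type, differences between types cannot be told apart from differences between lines, animals or cultures. The labels tie no cell to an animal or culture, hence a type was treated as a single sample and no test was made. SDs give the spread between 5 cells. VGT3+ cells 1 to 3 carried the library code G556 and VGT3+ cells 4 and 5 the code G709, which all Pv+ and Sst+ cells shared.

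The values are TPM (transcripts scaled to a sum of 1000000 per cell), shares of a cell's reads after correction for gene length, which allows levels of different genes to be compared within a cell. Reads counted per cell, estimated from TPM and gene length, ranged from 15.8 to 32.2 M in VGT3+, from 13.2 to 18.5 M in Pv+ and from 14.1 to 22.4 M in Sst+ cells, with M standing for 1000000. For the receptor genes, 3 reads corresponded to 0.0261 to 0.363 TPM, a limit that covers counting error alone. Because Gnas, which encodes the widely used Gs alpha subunit, was itself listed at 0 in 6 of the 15 cells, a receptor gene without a value is described as listed at 0 and not as absent. The label genes were where they should be, with Slc17a8 at 106 to 354 TPM in VGT3+ cells, Pvalb at 3136 to 7383 TPM in Pv+ cells and Sst at 1804 to 4539 TPM in Sst+ cells. Outside its own type, none of Slc17a8, Pvalb and Sst exceeded 0.0516, 55.1 and 0.458 TPM. Gad1 and Gad2, which mark GABAergic neurons, were above 0 in all 15 cells, while 7 pyramidal neuron markers summed to 0 to 72.3 TPM in VGT3+, 3.13 to 16.6 TPM in Pv+ and 0 to 14.2 TPM in Sst+ cells. Among these, Emx1, Tbr1 and Neurod2 were listed at 0 in every cell, Slc17a7 was at 3.05 TPM in VGT3+ cell 3 alone, Neurod6 reached 67.9 TPM in VGT3+ cell 1 and 12.2 TPM in Pv+ cell 5, and Camk2a was above 0 in 13 of the 15 cells at up to 14.2 TPM. Microglia markers summed to 133 to 24250 TPM in VGT3+, 4019 to 15726 TPM in Pv+ and 0.433 to 5122 TPM in Sst+ cells, and astrocyte markers to 284 to 3553, 331 to 1332 and 247 to 3111 TPM.

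VGT3+ cells carried the highest receptor transcripts of the 3 types, led by the serotonin-gated channel subunit Htr3a and the neuropeptide Y receptor Npy1r. Chrm2, Chrnb2 and Drd1 reached 1 TPM in all 5 Pv+ cells, and of these only Chrm2 lay above every cell of the other types. The highest Drd1 values lay in VGT3+ and Sst+ cells. None of the 42 was called highest in Sst+ cells by the rule that follows, against 3.39% of all genes tested. This count rose to as many as 2 when a single cell was left out. A gene was called highest in a type where its mean log2(TPM + 1) over the 5 cells lay at least 2 above that of each of the other types, and lowest where it lay at least 2 below. This was asked of genes averaging 1 TPM or more over the 15 cells, which held for 21 of the 42 receptor genes and for 12825 genes of the table. A gene can pass this filter through the type in which it is then called. Npy5r, for example, was listed at 0 in all Pv+ and Sst+ cells, and Htr3a did not exceed 0.445 TPM there. Counts set beside the share of all genes, here and for the other lists, are therefore descriptions and do not measure an excess. Called highest in VGT3+ cells were 5 receptor genes (Htr1a, Htr3a, Chrna3, Npy1r and Npy5r), where 3.77% of all genes tested were. Called highest in Pv+ cells were 4 (Chrnb2, Chrm2, Drd1 and Cckbr), where 3.89% of all genes were. In Sst+ cells the count was 0, against 3.39% of all genes. No receptor gene was called lowest in any type, where 2.17% of all genes were lowest in VGT3+ cells, 1.85% in Pv+ cells and 2.13% in Sst+ cells. A stricter description asks that all 5 cells of a type lie above the other 10. It held for Htr3a and Npy1r in VGT3+ cells (2 of 21, against 0.281% of all genes), for Chrm2 in Pv+ cells (1 of 21, against 0.733%) and for 0 of 21 in Sst+ cells (against 0.288%). Over all 21 tested receptor genes, the types were close to balanced: the median difference of mean log2(TPM + 1) was 0.29 between VGT3+ and Pv+, 0.61 between VGT3+ and Sst+ and 0.48 between Pv+ and Sst+ cells, with 11, 12 and 12 of 21 higher in the first type. Over all 12825 genes these medians were 0, -0.0005 and 0. Among the 1709 genes above 0 in every cell they were 0.38, 0.06 and -0.30, and dividing each cell by a size factor brought these to -0.005, 0.02 and 0.05 and left the 5 and 4 called genes the same.

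**Figure D1:**
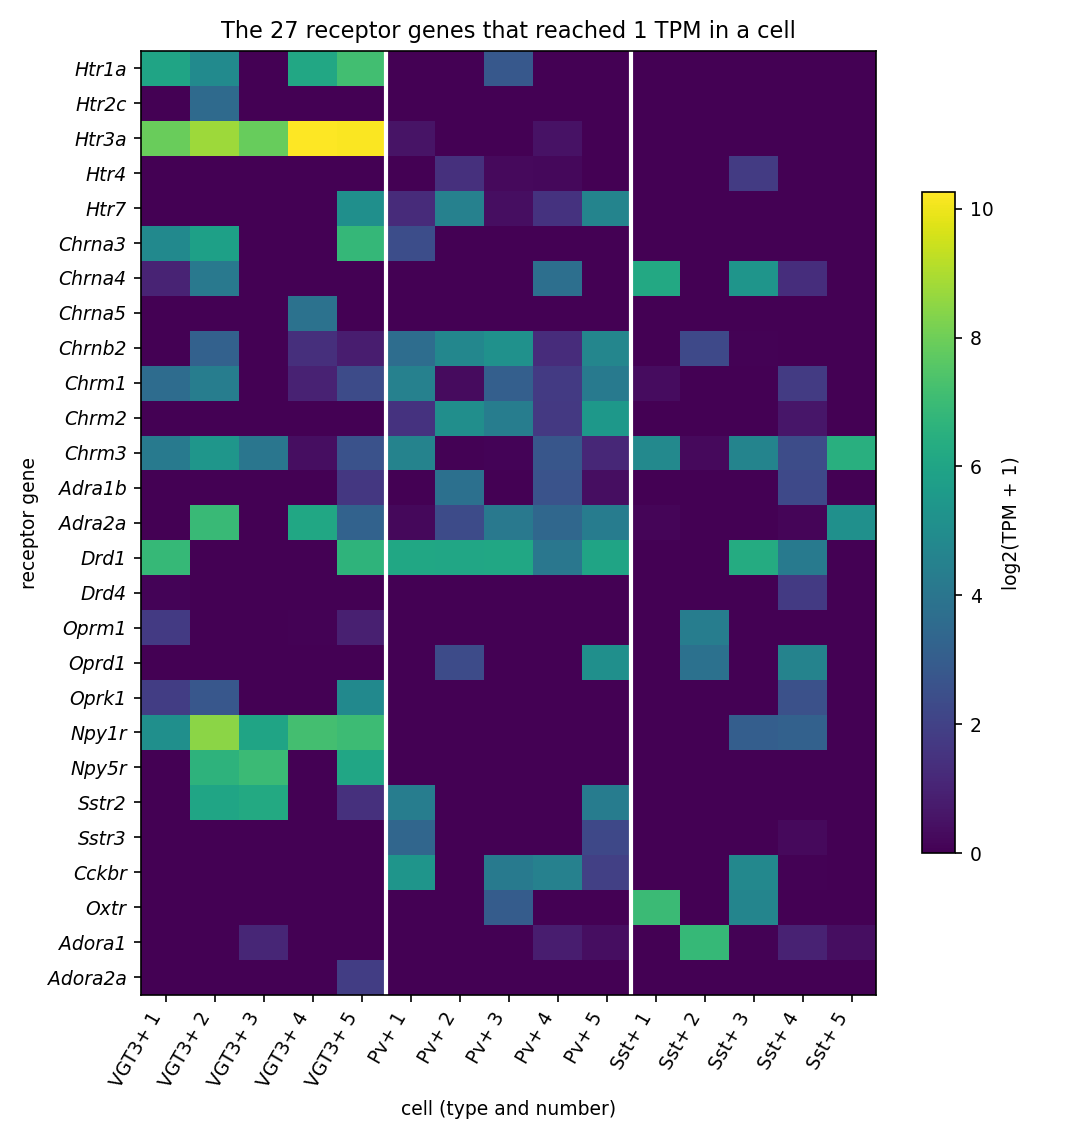
Level of the 27 receptor genes that reached 1 TPM in at least 1 cell, as log2(TPM + 1) by colour, with genes in rows and the 15 cells in columns (white lines separate VGT3+, Pv+ and Sst+ cells). The row of Htr3a is bright in all 5 VGT3+ cells (231 to 1221 TPM), and Chrm3 is the 1 gene above 0 in all 15 cells.

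For the called genes whose upstream sequence lay free of annotated exons over at least 200 bases and had a single RefSeq start, this sequence is shown. These genes differed between the types by the rule given above. The stretches end where the first exon begins, read 5′ to 3′ on the strand of the gene, and come from RefSeq on GRCm38.p6. Capitals mark the letters that a search for short motifs found.
Chrna3, called highest in VGT3+ cells (chr9:55026563-55026812, minus strand): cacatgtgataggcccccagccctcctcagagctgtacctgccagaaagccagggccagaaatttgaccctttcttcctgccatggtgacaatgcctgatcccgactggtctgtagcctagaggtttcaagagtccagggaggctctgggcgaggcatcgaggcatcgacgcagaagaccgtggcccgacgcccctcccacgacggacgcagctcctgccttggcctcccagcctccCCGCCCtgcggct
Npy5r, called highest in VGT3+ cells (chr8:66688129-66688344, minus strand): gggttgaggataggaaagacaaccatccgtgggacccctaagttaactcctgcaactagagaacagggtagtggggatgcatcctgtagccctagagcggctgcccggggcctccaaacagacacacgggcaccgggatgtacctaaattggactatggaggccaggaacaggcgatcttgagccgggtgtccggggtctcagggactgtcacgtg
Chrnb2, called highest in Pv+ cells (chr3:89764633-89764882, minus strand): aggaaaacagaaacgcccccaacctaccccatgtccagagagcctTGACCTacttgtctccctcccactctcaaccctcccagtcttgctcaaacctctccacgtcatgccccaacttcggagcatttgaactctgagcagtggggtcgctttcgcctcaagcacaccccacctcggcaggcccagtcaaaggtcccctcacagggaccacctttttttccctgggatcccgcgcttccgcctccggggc
Cckbr, called highest in Pv+ cells (chr7:105425481-105425730, plus strand): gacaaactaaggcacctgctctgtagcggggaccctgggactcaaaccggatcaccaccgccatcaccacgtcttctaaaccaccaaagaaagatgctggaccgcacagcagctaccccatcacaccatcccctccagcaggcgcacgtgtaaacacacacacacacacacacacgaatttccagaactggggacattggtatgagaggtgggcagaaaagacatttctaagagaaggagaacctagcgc
The Chrna3 stretch held a GC box near its end, Chrnb2 held the COUP-TF core, and the Npy5r and Cckbr stretches held none of the 6 motifs searched. GC content was 63.2% in Chrna3, 59.6% in Chrnb2, 58.3% in Npy5r and 53.6% in Cckbr, with 13, 10, 9 and 9 CG pairs. The motifs, each sought on both strands in the 250 bases before a start, were the GC box (GGGCGG, in 32.7% of 32841 windows of the mouse genome and in 20 of the 41 windows of receptor genes), the COUP-TF core (AGGTCA, 14.0% and 4 of 41), the TATA box (TATAAA, 12.4% and 2 of 41), the Nkx2-1 core (CAAGTG, 11.6% and 2 of 41), a homeodomain core (TAATTA, 4.84% and 1 of 41) and the cyclic AMP response element (TGACGTCA, 1.55% and 1 of 41). The 41 windows cover 34 of the 42 receptor genes, with a median GC content of 59.6% against 52.4% over all windows. A match describes the letters and no binding was measured.

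Of the 8 serotonin receptor genes, Htr3a and Htr1a were called highest in VGT3+ cells, and Htr3a was the 1 without overlap. Htr3a, whose protein forms the serotonin-gated channel and which lies on the minus strand of chromosome 9 from 48899213 to 48911099 in GRCm38, measured 241, 427, 231, 1221 and 1179 TPM in VGT3+ cells 1 to 5. In Pv+ cells it was at 0.445 TPM in cell 1 and 0.429 TPM in cell 4, an estimated 6 and 8 reads, and listed at 0 in cells 2, 3 and 5. All 5 Sst+ cells were listed at 0. Every VGT3+ cell therefore lay far above the highest other cell, with a mean of 660.0 ± 499 TPM (SD, n = 5 cells). The difference of mean log2(TPM + 1) was 8.79 to Pv+ and 9.0 to Sst+ cells. The level moved with the library code: VGT3+ cells 4 and 5, of code G709, had a mean of 1199.8 TPM, and the 3 cells of code G556 lay at or under 427 TPM. The lowest of these was still far above all 10 cells of the other types. Microglia markers in VGT3+ cells 1 to 5 summed to 24250, 823, 5795, 20454 and 133 TPM, and their part in the level of Htr3a was not tested. Htr3b, which encodes the partner subunit of mixed channels and lies 23908 bases away on the same strand, was listed at 0 in all 15 cells.

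Htr1a encodes a Gi-coupled receptor that hyperpolarizes neurons in response to serotonin. It measured 62.0, 28.7, 0, 70.9 and 141 TPM in VGT3+ cells 1 to 5, at 6.05 TPM in Pv+ cell 3, and listed at 0 in the other 4 Pv+ cells and in all 5 Sst+ cells. VGT3+ cell 3, listed at 0, was the exception that let the groups overlap. VGT3+ cells were higher in 20 of 25 pairs with a Pv+ cell and in 20 of 25 pairs with an Sst+ cell, and the differences of mean log2(TPM + 1) were 4.27 and 4.84. Htr7, a Gs-coupled receptor, had the opposite tendency: it was above 0 in all 5 Pv+ cells (0.319 to 23.8 TPM, mean 9.83 ± 11.9), at 33.1 TPM in VGT3+ cell 5, and listed at 0 in the other 9 cells. Without VGT3+ cell 5, Htr7 would also be called highest in Pv+ cells. Htr4, another Gs-coupled receptor, reached 1.68 TPM in Pv+ cell 2 and 2.44 TPM in Sst+ cell 3, and Htr2c, a Gq-coupled receptor, was at 10.8 TPM in VGT3+ cell 2 and listed at 0 elsewhere. Of the remaining serotonin receptor genes, Htr2a, the Gq-coupled receptor at which classical hallucinogens act, did not exceed 0.0579 TPM, and Htr1b, a Gi-coupled receptor of axon terminals, was listed at 0 in all cells.

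**Figure D2:**
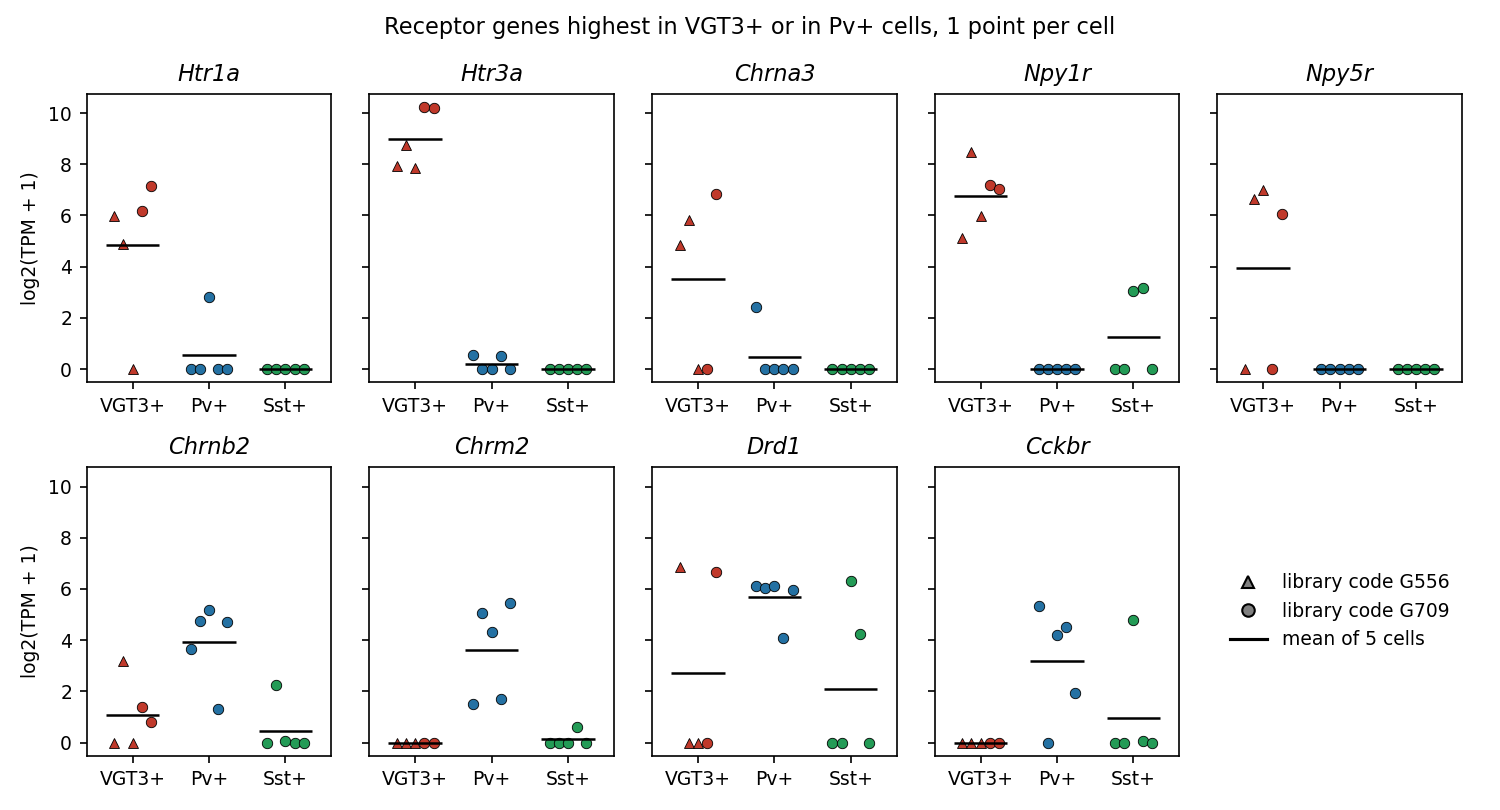
Level of the 5 receptor genes called highest in VGT3+ cells (upper row) and the 4 called highest in Pv+ cells (lower row), as log2(TPM + 1), with 1 point per cell and a bar at the mean of 5 cells; triangles mark the 3 VGT3+ cells of library code G556. Htr3a and Npy1r of VGT3+ cells and Chrm2 of Pv+ cells lie wholly above the other types, and VGT3+ cells at 0 are seen for Htr1a (1 cell), Chrna3 (2 cells) and Npy5r (2 cells).

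Nicotinic receptor subunits differed by type as well, with Chrna3 in VGT3+ cells, Chrnb2 in Pv+ cells and Chrna4 scattered over all 3. Chrna3 encodes an alpha subunit best known from autonomic ganglia. It measured 27.9, 56.3, 0, 0 and 112 TPM in VGT3+ cells 1 to 5, at 4.35 TPM in Pv+ cell 1, and listed at 0 in the other 9 cells. The 3 VGT3+ cells above 0 exceeded every other cell, and the 2 at 0 shared that level with most Pv+ and all Sst+ cells. The differences of mean log2(TPM + 1) were 3.02 to Pv+ and 3.5 to Sst+ cells. Chrna5, an accessory alpha subunit whose gene lies 2331 bases from Chrna3 in tail-to-tail orientation, was at 13.6 TPM in VGT3+ cell 4 and listed at 0 in the other 14. That cell was one of those without Chrna3, so no cell held both.

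Chrnb2, the beta subunit that pairs with Chrna4 in the main high-affinity nicotinic receptor of the brain, was at 11.5, 26.1, 35.7, 1.45 and 25.4 TPM in Pv+ cells 1 to 5, a mean of 20.0 ± 13.5 TPM. In VGT3+ cells it was at 0, 8.00, 0, 1.59 and 0.749 TPM, and in Sst+ cells at 0, 3.77, 0.0319, 0 and 0 TPM. Pv+ cells were higher in 24 of 25 pairs with an Sst+ cell, and VGT3+ cells were higher in 2 of 25 pairs with a Pv+ cell, both of them pairs with Pv+ cell 4. The mean log2(TPM + 1) of Pv+ cells exceeded that of Sst+ cells by 3.46, and the difference VGT3+ minus Pv+ was -2.85. Of the exonic length of Chrnb2, 16.3% is shared with the RNA-editing gene Adar on the opposite strand, and whether reads were counted by strand is not given in the sources used here. Chrna4 was at 1.03, 16.8, 0, 0 and 0 TPM in VGT3+ cells, at 12.4 TPM in Pv+ cell 4 and 0 in the other Pv+ cells, and at 72.8, 0, 39.7, 1.52 and 0 TPM in Sst+ cells. The 2 highest cells were Sst+, but 2 of the 5 Sst+ cells were listed at 0, and Sst+ cells overlapped both other types. The 2 Sst+ cells with most Chrna4 held at most 0.0319 TPM of Chrnb2, whereas VGT3+ cell 2 and Pv+ cell 4 held both. Chrna7, which forms receptors of a single kind of subunit, was listed at 0 in all 15 cells. Chrna2, known as a marker of Sst+ interneurons of the stratum oriens, was at 0.135 TPM in Sst+ cell 4 and otherwise listed at 0.

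Muscarinic receptors gave the 1 gene that marked Pv+ cells without overlap. Chrm2, a Gi-coupled receptor found on the terminals of perisomatic interneurons, was at 1.84, 32.3, 19.2, 2.21 and 43.0 TPM in Pv+ cells 1 to 5, a mean of 19.7 ± 18.2 TPM. It was at 0.531 TPM in Sst+ cell 4 and listed at 0 in the other 4 Sst+ cells and in all 5 VGT3+ cells. Pv+ cells fell into levels near 2 TPM (cells 1 and 4) and levels of 19.2 TPM and above (cells 2, 3 and 5), and even the lowest lay above all 10 other cells. In estimated reads, Pv+ cells held 72.0 to 1998 and Sst+ cell 4 held 27.0. The mean log2(TPM + 1) of Pv+ cells exceeded that of Sst+ cells by 3.48, and the difference VGT3+ minus Pv+ was -3.61.

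Chrm3, a Gq-coupled receptor that excites interneurons, was the 1 receptor gene among the 1709 genes of the table above 0 in every cell. It was at 17.1, 41.4, 15.2, 0.290 and 5.03 TPM in VGT3+ cells, at 23.2, 0.0304, 0.0602, 5.77 and 1.22 TPM in Pv+ cells, and at 27.0, 0.198, 23.7, 4.23 and 88.4 TPM in Sst+ cells. The means were 15.8 ± 15.9, 6.05 ± 9.86 and 28.7 ± 35.4 TPM, and all 3 types overlapped. Pv+ cells were lower in 20 of 25 pairs with an Sst+ cell and in 18 of 25 pairs with a VGT3+ cell. In mean log2(TPM + 1), Pv+ minus Sst+ was -1.99, just short of the threshold of 2, and VGT3+ minus Pv+ was 1.59. The 2 lowest values, in Pv+ cells 2 and 3, correspond to an estimated 1.39 and 2.77 reads, which is at the limit of counting. In VGT3+ cells the 3 of code G556 lay above the 2 of code G709, whose mean was 2.66 TPM. Chrm1, the other Gq-coupled member, was above 0 in 4 VGT3+ cells (0.964 to 19.5 TPM), in all 5 Pv+ cells (0.233 to 21.9 TPM, mean 10.0 ± 9.53) and in 2 Sst+ cells (up to 2.44 TPM). Chrm4, which couples to Gi like Chrm2, was listed at 0 in all cells.

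Dopamine and noradrenaline receptors were led by Drd1 and Adra2a. Drd1 encodes the main Gs-coupled dopamine receptor and its gene is on chromosome 13. It was at 68.7, 65.3, 67.9, 15.9 and 62.1 TPM in Pv+ cells 1 to 5, a mean of 55.98 ± 22.5 TPM. In VGT3+ cells it was at 116, 0, 0, 0 and 102 TPM, and in Sst+ cells at 0, 0, 78.5, 17.8 and 0 TPM. Pv+ cells thus held a steady level with cell 4 below the rest, whereas VGT3+ and Sst+ cells had either a level of the same order or none listed. The 3 highest values belonged to VGT3+ cells 1 and 5 and Sst+ cell 3, so the call rests on the 6 cells of the other types listed at 0. Pv+ minus Sst+ was 3.56 and VGT3+ minus Pv+ was -2.96 in mean log2(TPM + 1). Drd2, the main Gi-coupled dopamine receptor, was listed at 0 in all 15 cells, and Drd4, also Gi-coupled, was at 2.32 TPM in Sst+ cell 4 and at most 0.0782 TPM elsewhere.

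Adra2a, a Gi-coupled receptor for noradrenaline, was at 0, 122, 0, 67.7 and 8.26 TPM in VGT3+ cells, at 0.163, 4.11, 16.5, 9.77 and 19.0 TPM in Pv+ cells (mean 9.90 ± 7.96), and at 0.0907, 0, 0, 0.0940 and 34.6 TPM in Sst+ cells. The 2 highest cells were VGT3+, the Pv+ cells lay in between, and 1 Sst+ cell stood above the other 4, so the types overlapped. Adra1b, a Gq-coupled receptor, was above 0 in 3 Pv+ cells (0.308 to 12.9 TPM), in VGT3+ cell 5 (2.18 TPM) and in Sst+ cell 4 (3.77 TPM). Adra1a, of the same coupling, and the Gs-coupled Adrb1 stayed below 1 TPM in every cell, at no more than 0.402 and 0.0489 TPM.

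Of the 3 neuropeptide Y receptor genes, Npy1r and Npy5r were called highest in VGT3+ cells, and Npy1r was without overlap. Npy1r, a Gi-coupled receptor of postsynaptic membranes encoded at bases 66697192 to 66706792 of chromosome 8 (plus strand), measured 33.5, 354, 62.2, 144 and 131 TPM in VGT3+ cells 1 to 5, a mean of 145 ± 126 TPM. It was listed at 0 in all 5 Pv+ cells, and was at 7.32 TPM in Sst+ cell 3, at 8.08 TPM in Sst+ cell 4 and at 0 in the other Sst+ cells. The lowest VGT3+ cell lay above the highest Sst+ cell, and the differences of mean log2(TPM + 1) were 6.76 to Pv+ and 5.51 to Sst+ cells. The 2 VGT3+ cells of code G709 had a mean of 138 TPM. Npy5r, the Gi-coupled receptor whose gene runs the opposite way 9063 bases from Npy1r, was at 0, 98.5, 127, 0 and 65.8 TPM in VGT3+ cells and listed at 0 in all 10 Pv+ and Sst+ cells. It was found in 3 of the 5 VGT3+ cells, each of which also held Npy1r, and its difference of mean log2(TPM + 1) was 3.94 to both types. Npy2r, the Gi-coupled receptor of axon terminals, was listed at 0 in all cells. The precursor of the ligand lay mainly in Sst+ cells: Npy was at 8621 to 125111 TPM there, at 9121 TPM in the second VGT3+ cell and at 2297 TPM in Pv+ cell 1, with no more than 89.2 TPM in any of the remaining 8. Between VGT3+ and Pv+ cells, its mean log2(TPM + 1) differed by 0.19. VGT3+ cell 2 thus held the precursor and the most Npy1r of all cells.

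Of the other peptide receptors, Cckbr was called highest in Pv+ cells. It encodes the Gq-coupled cholecystokinin receptor of the brain and was at 39.9, 0, 17.2, 21.9 and 2.87 TPM in Pv+ cells 1 to 5. In Sst+ cells it was at 26.9 TPM in cell 3 and 0.0429 TPM in cell 4, and it was listed at 0 in the other 3 Sst+ and all 5 VGT3+ cells. Sst+ cell 3 lay above 4 of the Pv+ cells, so the groups overlapped. VGT3+ minus Pv+ was -3.20, and Pv+ minus Sst+ was 2.23, close to the threshold of 2. Leaving out any of Pv+ cells 1, 3 and 4 or Sst+ cells 1, 2, 4 and 5 brought the latter below 2 and ended the call, with 1.69 as the lowest value, without Pv+ cell 1. Cck, the precursor of its ligand, was at 1263, 1154, 557, 1219 and 0 TPM in VGT3+ cells and 191 to 677 TPM in Pv+ cells and listed at 0 in Sst+ cells, so the 4 VGT3+ cells with the precursor held no listed receptor and 4 of 5 Pv+ cells held both.

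**Figure D3:**
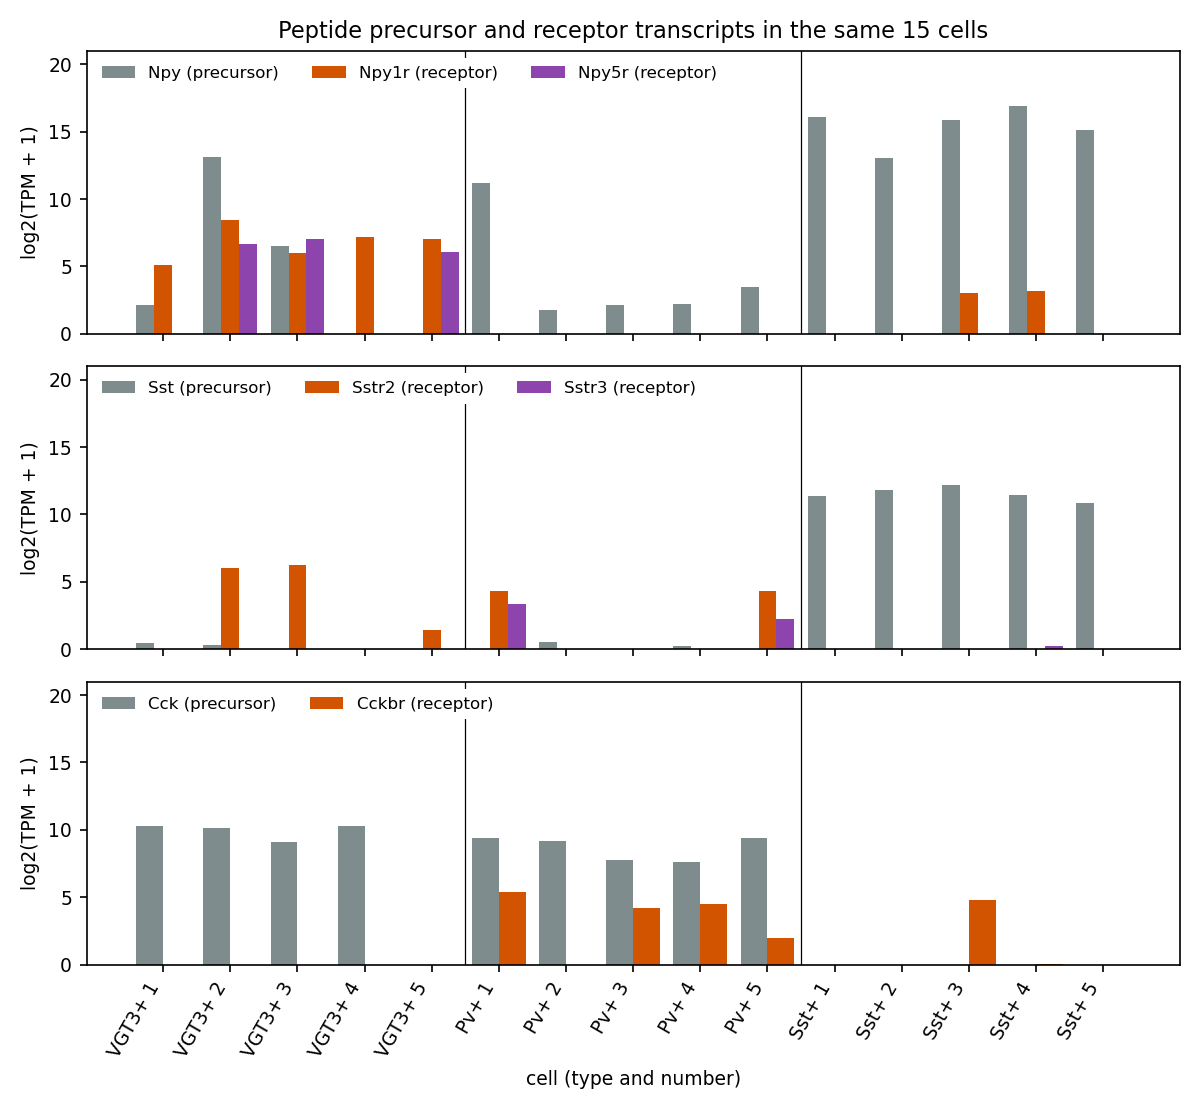
Transcripts of peptide precursors (grey) and their receptors (orange and purple) in each of the 15 cells, as log2(TPM + 1) bars from 0, for neuropeptide Y (upper), somatostatin (middle) and cholecystokinin (lower panel). Npy is tallest in Sst+ cells, where Npy1r is at most 8.08 TPM, and Sstr2 bars stand in VGT3+ and Pv+ cells, where Sst is at most 0.458 TPM.

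Somatostatin receptors were found mainly outside the cells that make the peptide. Sstr2, a Gi-coupled receptor, was at 0, 64.1, 74.9, 0 and 1.65 TPM in VGT3+ cells, at 19.1, 0, 0, 0 and 18.7 TPM in Pv+ cells, and listed at 0 in all 5 Sst+ cells. VGT3+ and Pv+ cells overlapped, and 5 of these 10 cells held the transcript. Sstr3, the Gi-coupled receptor of neuronal cilia, was at 9.52 TPM in Pv+ cell 1, 3.72 TPM in Pv+ cell 5 and 0.182 TPM in Sst+ cell 4, and otherwise listed at 0. Both Pv+ cells with Sstr3 were those with Sstr2. Sstr4 was at 0.289 TPM in Pv+ cell 2 alone, and Sstr1, which like Sstr4 couples to Gi, was listed at 0 in all cells.

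Oxtr, the Gq-coupled oxytocin receptor, was at 125, 0, 24.5, 0 and 0 TPM in Sst+ cells 1 to 5, at 7.01 TPM in Pv+ cell 3, and listed at 0 in all VGT3+ cells. Sst+ cell 1 stood far above the rest, and this was also the Sst+ cell with the highest sum of astrocyte markers, 3111 TPM, whose part in the value was not tested. In Sst+ cell 3 the astrocyte markers summed to 384 TPM. Oprd1, the Gi-coupled delta opioid receptor, was at 4.09 and 33.8 TPM in Pv+ cells 2 and 5 and at 13.0 and 23.0 TPM in Sst+ cells 2 and 4, with no VGT3+ cell above 0. Oprk1, the kappa receptor, had the other distribution, with 2.68, 5.89 and 28.6 TPM in VGT3+ cells 1, 2 and 5, 4.79 TPM in Sst+ cell 4 and no Pv+ cell above 0. Oprm1, the mu receptor, reached 19.2 TPM in Sst+ cell 2 and 2.35 TPM in VGT3+ cell 1, and was listed at 0 in all Pv+ cells. The precursors Penk and Pomc of the opioid peptides were listed at 0 throughout, and Pdyn was at 26.7 TPM in Pv+ cell 1 and 23.8 TPM in Sst+ cell 5.

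Tachykinin receptors were nearly absent from the values. Tacr3, the receptor for neurokinin B, was listed at 0 in all cells, although the precursor Tac2 was at 6377, 242 and 296 TPM in VGT3+ cells 1, 4 and 5 and at 112 TPM in Sst+ cell 2. Tacr1, the substance P receptor, did not exceed 0.676 TPM, in Pv+ cell 1, the cell with most of the substance P precursor Tac1 (278 TPM). Vipr1, a Gs-coupled receptor for vasoactive intestinal peptide, was listed at 0 in all cells, and Vip itself was at most 0.546 TPM.

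Adora1, the Gi-coupled adenosine receptor that lowers transmitter release, was at 0, 117, 0.0297, 0.988 and 0.316 TPM in Sst+ cells 1 to 5. It was at 0.0140 and 1.15 TPM in VGT3+ cells 2 and 3, at 0.752 and 0.316 TPM in Pv+ cells 4 and 5, and listed at 0 in the other 6 cells. Sst+ cell 2 stood alone, and the next cell was at 1.15 TPM. For the counting, 20.1% of the exonic length of Adora1 is shared with Mybph on the opposite strand. Microglia and astrocyte markers in Sst+ cell 2 summed to 177 and 247 TPM, both in the lower range of the 15 cells. Markers of the oligodendrocyte lineage summed to 268 TPM there. Endothelial markers summed to 309 TPM, the highest of the 15 cells and all of it Ly6c1. The part of other cells in the Adora1 value was not tested. Adora2a, the Gs-coupled counterpart, was at 2.65 TPM in VGT3+ cell 5 and listed at 0 elsewhere.

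The number of receptor genes found in a cell also differed. At 1 TPM or more, VGT3+ cells 1 to 5 held 10, 13, 6, 6 and 14 of the 42, Pv+ cells 10, 8, 8, 10 and 11, and Sst+ cells 3, 4, 7, 9 and 2. The medians were 10, 10 and 4, and the Sst+ cells overlapped the other types through cells 3 and 4. Sst+ cells also had fewer genes of any kind at 1 TPM or more, with medians of 7037 for VGT3+, 7724 for Pv+ and 6106 for Sst+ cells, and the 2 VGT3+ cells with 6 receptor genes were those with the fewest genes overall (4307 and 5103). The part of this overall difference in the number of receptor genes was not tested. The microglia marker sums were lower in Sst+ cells too (median 288 TPM) than in VGT3+ cells (5795 TPM) and Pv+ cells (4340 TPM), and their part was not tested either. Over the 5 cells of a type, 20 receptor genes reached 1 TPM in VGT3+ cells, 17 in Pv+ cells and 16 in Sst+ cells. Of these, 7 did so in each type (Chrna4, Chrnb2, Chrm1, Chrm3, Adra1b, Adra2a and Drd1). Genes reaching it in VGT3+ cells alone were Htr2c, Htr3a, Chrna5, Npy5r and Adora2a, in Pv+ cells alone Chrm2 and Sstr3, and in Sst+ cells alone Drd4. Htr2c, Chrna5, Adora2a and Drd4 each reached it in 1 cell. Such counts were not made over all genes, so they do not show a restriction to a type. All 5 cells of a type reached 1 TPM for Htr3a and Npy1r in VGT3+ cells and for Chrnb2, Chrm2 and Drd1 in Pv+ cells, and for 0 receptor genes in Sst+ cells.

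**Figure D4:**
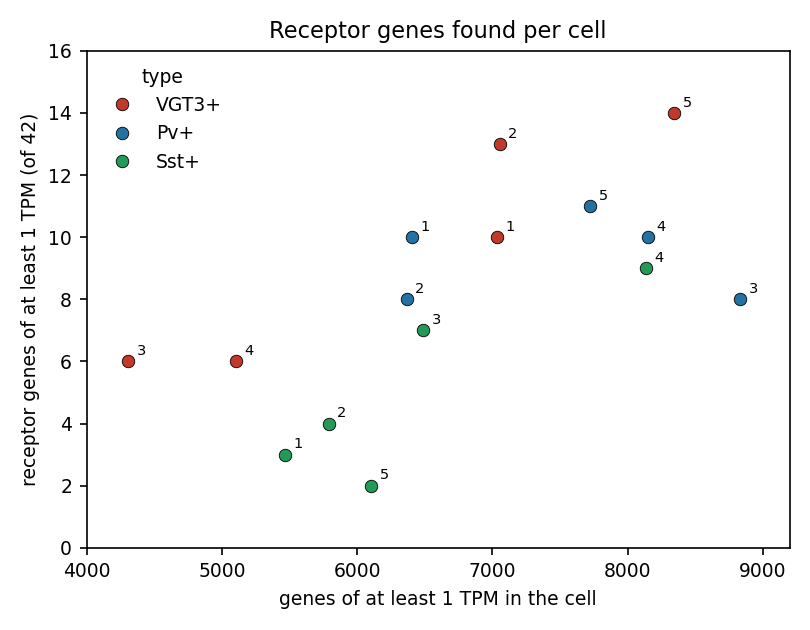
Number of the 42 receptor genes at 1 TPM or more (vertical axis) against the number of all genes at 1 TPM or more (horizontal axis, which does not start at 0) in each of the 15 cells, coloured by type and numbered by cell. Sst+ cells 1, 2 and 5 lie lowest with 2 to 4 receptor genes, and VGT3+ cells 2 and 5 highest with 13 and 14.

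The receptor transcripts of a cell were dominated by different genes in each type. Summed over the 42 genes, they came to 512 to 1818 TPM in VGT3+ cells, 80.2 to 252 TPM in Pv+ cells and 70.0 to 226 TPM in Sst+ cells, so every VGT3+ cell exceeded every other cell. Htr3a was the highest receptor transcript in each VGT3+ cell, at 34.1 to 80.3% of the sum. Drd1 was the highest in Pv+ cells 1, 2, 3 and 5 (24.6 to 38.7%) and Cckbr in Pv+ cell 4 (27.3%). In Sst+ cells a different gene led each time: Oxtr in cell 1 (55.4%), Adora1 in cell 2 (76.3%), Drd1 in cell 3 (38.6%), Oprd1 in cell 4 (32.9%) and Chrm3 in cell 5 (71.6%).

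Among 47 further entries for receptors of the same or related ligands, 23 were above 0 in a cell and 13 had a mean of at least 1 TPM. Adora3 held separate entries under different Ensembl identifiers, and the higher of them was among the 13. Of the 13, 3 were called highest in Sst+ cells, where 3.39% of all genes were. The count was 0 for highest in VGT3+ cells (3.77% of all genes) and Pv+ cells (3.89%), and 0 for lowest in any type. Oprl1, the Gi-coupled nociceptin receptor, was at 25.2, 0.178, 77.8, 34.6 and 19.8 TPM in Sst+ cells, at 2.06, 2.29, 0, 0 and 48.9 TPM in VGT3+ cells and at 0.123, 0, 12.2, 15.4 and 5.98 TPM in Pv+ cells. Chrnb3, a nicotinic beta subunit, was at 0, 89.0, 0.187, 24.3 and 0.0265 TPM in Sst+ cells, and Mc4r, a Gs-coupled melanocortin receptor, at 104 and 78.3 TPM in Sst+ cells 3 and 4, and both were listed at 0 in all VGT3+ and Pv+ cells. Each of these calls rests on 2 to 4 of the 5 Sst+ cells. Chrnb3 and Mc4r were among the 13 through Sst+ cells alone, so the count of 3 does not measure an excess. Adcyap1r1, the receptor for the peptide PACAP, was found in all 15 cells at 6.40 to 142 TPM, a level that none of the 42 reached in every cell. Ntsr2, a neurotensin receptor that is abundant in astrocytes, was at 562 TPM in Sst+ cell 1 and at most 0.376 TPM elsewhere. The astrocyte marker sum in that cell was 3111 TPM, and its part in the value was not tested.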

How the data were processed

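Cytosol of single VGT3+, Pv+ and Sst+ interneurons, 5 cells a type, was converted to cDNA with a full-length template-switching kit and sequenced as paired reads, 1 library per cell. The authors aligned reads to GRCm38 with HISAT2 2.1.0, counted them per Ensembl gene with HTSeq and turned the counts into TPM by an R code that uses gene lengths. The deposited table holds TPM for 43629 genes and all 15 cells, each cell adding up to 1000000, with no scaling between cells, so that a few abundant transcripts lower the share of all others.

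The 42 receptor genes, the other lists and the alternatives were chosen with earlier results of these data known. All 42 are accounted for, and every cell's value is given for the 15 that averaged 10 TPM or more in a type. From the other lists, genes called highest or lowest and up to 4 per list by mean TPM were named. Types were compared by subtracting means of log2(TPM + 1), with a call at 2 or more among genes averaging 1 TPM or more. A mean and SD is given where no cell of the type was at 0. Means, counts and medians were computed with numpy 2.4.6 and pandas 2.3.3 under Python 3.11.15 and drawn with matplotlib 3.10.9. Reads per cell were estimated from TPM and the exon lengths of GENCODE M21, where 97.3% of listed genes had one. Of values under 50 estimated reads, 71.9 to 76.3% lay within 0.01 of a whole number. Upstream sequences came from RefSeq windows of 250 bases before and 50 after a start. The alternatives were library code G709 alone, leaving out each cell, 2 other scalings, 2 other filters, a pseudocount of 0.1, medians, a difference of 1 and other detection limits.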

Additional observations from a re-analysis of the deposited data

Results flagged for a closer look

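In 18 groups of 5 cells, each of 1 receptor gene in 1 type, the highest and lowest cells were compared with the rest by Dixon's ratio of the gap to the range, and a cell stood apart in 4. Chance flags about 1 in 20 groups, but that rate does not apply here, since the groups were those averaging 10 TPM or more and the 3 Sst+ groups below passed that limit through the cell that stood apart. Drd1 was at 15.9 TPM in Pv+ cell 4, below the other Pv+ cells, and at 78.5 TPM in Sst+ cell 3, above the other Sst+ cells. Oxtr was at 125 TPM in Sst+ cell 1 and Adora1 at 117 TPM in Sst+ cell 2, each far above the other Sst+ cells.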

How the results depend on the processing

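The 5 receptor genes called highest in VGT3+ cells remained called under every alternative run, and the 4 called highest in Pv+ cells under every one except a minimum mean of 10 TPM, which left 1 (Drd1) and 0 without overlap, and 7 of the leave-one-out settings, which lost Cckbr. With library code G709 alone or with rescaling without mitochondrial and the 10 most abundant genes, 1 was lowest in Sst+ cells (Htr7 and Adra2a). Over all genes, 2.64% and 2.56% were lowest in Sst+ cells in these settings. At the minimum mean of 10 TPM, 5.06% of all genes were highest in Pv+ cells and 1.197% were without overlap there. A pseudocount of 0.1 called 1 lowest in VGT3+, 2 lowest in Pv+, 3 highest in Sst+ and 3 lowest in Sst+ cells. A difference of 1 called 1, 2, 3 and 4 in the same order. Medians called 1 lowest in Pv+ and 2 lowest in Sst+ cells. Chrm3 was among those called lowest in Pv+ cells in each of these settings. These settings also called more of all genes: 7.78, 3.89, 7.63 and 6.84% in the same order with the pseudocount, 9.54, 7.97, 13.6 and 8.34% with a difference of 1, and 3.18 and 4.92% with medians. Leaving out 1 cell, counts of lowest in Sst+ and in Pv+ cells ranged from 0 to 1. Of all genes, 1.91 to 3.21% and 1.68 to 2.28% were. Counts of highest in Sst+ cells ranged from 0 to 2, against 2.94 to 4.82% of all genes. Added were Chrna4 and Oxtr without Sst+ cell 2 or 5, and Oxtr without Sst+ cell 4 or Pv+ cell 3. Counts of no overlap in Pv+ cells ranged from 1 to 2, against 0.782 to 1.07% of all genes. Added were Htr7 without VGT3+ cell 5 or Chrnb2 without Pv+ cell 4. Without VGT3+ cell 3, or with code G709 alone, Htr1a joined Htr3a and Npy1r as the third gene without overlap in VGT3+ cells, where 0.594% and 5.68% of all genes had none. With code G709 alone, 11.99% of all genes were highest in VGT3+ cells, whose group then held 2 cells. The median number of receptor genes in Pv+ cells was 13 above 0 and 5 at 10 TPM or more. Of the 21 named differences of at least 2, 0 reversed, 2 moved beyond the spread between cells with code G709 alone, 4 with medians and 10 with a pseudocount of 0.1. The causes of these movements were not tested. No paired analysis was possible because the cells of a number share nothing else and no test was made. Values of a few reads are at the limit of counting, and a value of 0 does not show that a transcript was absent.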

Other observations

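Some genes that act downstream of the receptors were called highest or lowest in a type. Of 29 genes for G protein alpha subunits, regulators of G protein signalling (RGS), receptor kinases and arrestins, 24 had a mean of at least 1 TPM. Called highest in VGT3+ cells were 3 of the 24, where 3.77% of all genes were: Gnas at 1.58, 0, 75.4, 199.9 and 281 TPM in cells 1 to 5, Gnai3 at 0, 52.5, 0, 53.1 and 17.0 TPM, and Rgs12 at 8.57, 0, 309, 53.5 and 12.3 TPM. Each was listed at 0 in at least 1 VGT3+ cell, and Gnas in 5 of the 10 other cells. Called highest in Pv+ cells were 2, where 3.89% of all genes were: Rgs2, at 136 to 1015 TPM, and Rgs4, at 8.10 to 148 TPM, both of which shorten Gq signals. Rgs2 was at 395 and 359 TPM in VGT3+ cells 1 and 4 and Rgs4 at 419.6 TPM in VGT3+ cell 3, so both overlapped. Rgs10, which is also abundant in microglia, was the 1 called lowest in Sst+ cells, where 2.13% of all genes were. It was at 0 to 233 TPM there, against 159 to 358 TPM in VGT3+ and 32.3 to 374 TPM in Pv+ cells. The microglia marker sums were lower in Sst+ cells too, and the part of microglia in the level of Rgs10 was not tested. Gnao1, the alpha subunit of the main G protein of neurons, was found in every cell at 22.3 to 136 TPM.

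Of 6 genes for partners of nicotinic and serotonin-gated channels, 5 had a mean of at least 1 TPM. Lypd1, a membrane-anchored protein that dampens nicotinic receptors, was the 1 called highest in VGT3+ cells, where 3.77% of all genes were. It was at 56.6, 0, 0.0708, 425 and 438 TPM there and did not exceed 0.0220 TPM elsewhere. Ly6e, of the same family, was the 1 called lowest in Pv+ cells, where 1.85% of all genes were, at 46.4 to 159 TPM against 115 to 1099 TPM in VGT3+ and 278 to 1042 TPM in Sst+ cells. Lynx1, which also binds nicotinic receptors, was at 40.7 to 120 TPM in Pv+ and 32.2 to 153 TPM in Sst+ cells, and at 0 to 190 TPM in VGT3+ cells.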
